A study of Arabidopsis thaliana with 12 samples.

Results

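The experiment crossed light quality with the hormone abscisic acid (ABA), and the quantity described here is their interaction, the amount by which the ABA response under supplemental far-red light differed from the ABA response in white light. All 12 arrays of the series, 3 in each of 4 groups, enter it. Arabidopsis thaliana seedlings grew for 9 days in continuous white light and then spent 24 h in white light alone (the mock-treated control), white light with ABA, white light with supplemental far-red light, or supplemental far-red light with ABA. Photon fluxes are printed in the labels as 80 for white and 6 for far-red light, with mmol as the unit, and the ABA dose as 1 mM; these prefixes could not be checked. The aerial parts of 10-day-old plants were pooled tissue of many cell types, no ecotype or genotype is named in the sources used here, and in such bulk samples more RNA per cell cannot be told apart from more cells of a type. The white-light groups without and with ABA are named as such below, and the groups with supplemental far-red light are called far-red, or far-red with ABA.

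For each probe set on a log2 scale the interaction is far-red with ABA minus far-red, less the difference of white light with ABA minus white light. A value of 0 means that ABA changed the signal by the same factor in both lights, a negative value that the ABA difference was lower (a smaller rise or a larger fall) under far-red light, and a positive value that it was higher. The same number is the far-red response with ABA less the far-red response without it. All 22746 probe sets other than the controls were ranked by it.

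As background, plants sense how much far-red light they receive relative to red through phytochromes, above all phytochrome B. Far-red light reflected by neighbours inactivates phytochrome B, which frees PIF transcription factors, raises auxin synthesis and starts shade avoidance, with elongation of stems and petioles. ABA, the hormone of drought and seed maturation, binds PYR/PYL receptors, which block PP2C phosphatases, free SnRK2 kinases and activate ABF transcription factors. Its targets include late-embryogenesis-abundant (LEA) proteins, dehydrins and other protectants. Both signals also act on anthocyanin pigments, stomata and defence genes, so that a departure from additive responses is a natural question for this design.

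No probe set passed the test of the interaction. In the limma fit, with p-values adjusted by Benjamini-Hochberg across the 22746 probe sets, 0 had an adjusted p under 0.05 (0%), and the smallest adjusted p was 0.400. Without adjustment 1465 probe sets (6.44%) had a p under 0.05, where evenly spread p-values would give 5%. In the same fit the averaged ABA effect called 3914 probe sets and the averaged far-red effect 2110. The spread of the moderated t over all probe sets was 1.14 (SD) for the interaction, 2.75 for the averaged ABA effect and 2.04 for the averaged far-red effect. Both averaged effects come from the same arrays as the interaction, and their errors are uncorrelated with it only if the 4 groups vary equally. The median SD within a group over all probe sets was 0.114 in white light, 0.0937 in white light with ABA, 0.109 in far-red and 0.108 in far-red with ABA. The averaged far-red count depended on single arrays: it was 1133 without white light replicate 3, 1172 and 1227 without replicates 1 and 2 of white light with ABA, 1223 when far-red replicate 2 was left out and 1291 when replicate 3 of far-red with ABA was.

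**Figure D1:**
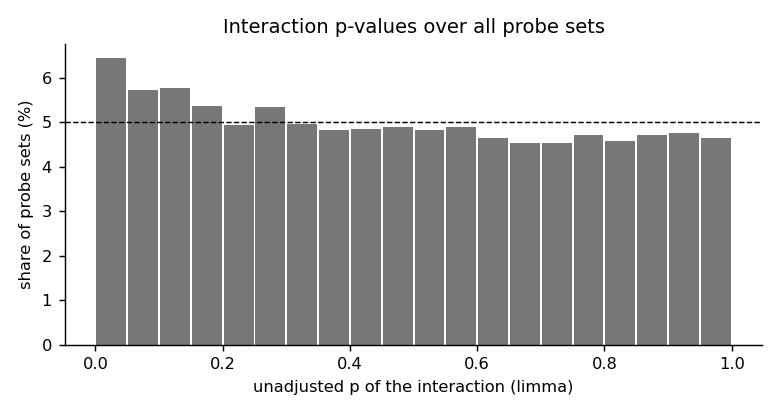
Share of the 22746 probe sets (vertical axis, percent) in each twentieth of the range of unadjusted limma p-values of the interaction (horizontal axis). The dashed line marks the 5% that evenly spread p-values would give, and the first bar stands at 6.44%.

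The median standard error of the interaction was 0.144 log2 units, so that its 95% interval reached 0.306 to either side for a typical probe set. The values ran from -2.34 to 1.27, and 12 probe sets reached a size of 1, 8 of them negative and 4 positive. The residual SD of these 12 had a median of 0.522 log2 units, against 0.125 over all probe sets. Of the nominal results, 952 (4.19%) were negative and 513 (2.26%) positive, a share of 35.02% positive. This split depends on the scaling of the arrays. It was 50.1% positive after quantile normalization and 80.3% with each array centred on its median, which moved the median interaction over all probe sets from -0.014 to 0.068. The array medians carried an interaction of -0.082 log2 units of their own and the share of present calls an interaction of -4.47 percentage points. A single direction for the bulk of the ranking is therefore not given.

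The labelled tissue was checked against leaf and root transcripts. The leaf transcripts LHCB4.1, of the light-harvesting antenna, and RCA, the activase of Rubisco, were among the brightest on every array, between 12.7 and 13.4 log2 units, and the root-hair expansins EXPA7 and EXPA18 were called present on none of the 12. Signals this bright may not follow small differences, and these transcripts do not show whether the groups held the same mixture of cells. The reference genes AT2G28390, AT4G34270 and PEX4 had interactions of -0.06, -0.09 and 0.03. Of the 20 gene lists with 288 entries, 64 entries were measured here by a probe set of a single gene, so most lists are seen in part.

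At the low end stood genes that were higher with ABA in white light and less so under far-red light. The largest named value was that of AT3G02480, a LEA-family protein, with levels of 5.86, 4.63 and 6.10 log2 units in white light and 8.90, 8.25 and 8.76 in white light with ABA. Its levels were 6.77, 6.82 and 7.47 in far-red and 7.93, 7.79 and 8.67 in far-red with ABA. Far-red arrays lay above all white-light arrays and below all arrays with ABA, so the gene was higher with either treatment alone, and its mean was highest with ABA in white light. The ABA difference was 3.105 in white light and 1.11 under far-red light, an interaction of -1.998 (SE 0.45, 95% interval -2.96 to -1.03, n = 3 per group, limma adjusted p = 0.533). Every pairing of arrays gave a smaller ABA difference under far-red light than in white light. The averaged ABA effect on AT3G02480 was a rise of 2.11 (adjusted p = 1.139e-05).

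AT4G36700, a cupin-domain protein related to seed storage proteins, had the same form with more scatter. Its levels were 4.35, 3.802 and 4.91 in white light, 7.28, 6.54 and 6.35 in white light with ABA, 4.72, 5.14 and 6.30 in far-red and 5.96, 5.72 and 6.92 in far-red with ABA. The far-red groups overlapped through far-red replicate 3, and the white-light groups did not overlap. The interaction was -1.56 (SE 0.54, adjusted p = 0.755), and -1.10 without far-red replicate 3. AT4G36700 was called present on 1 of 3 arrays in white light, so its level there lay near the background. AT5G03350, a lectin-family gene, stood at -0.78 (SE 0.35, adjusted p = 0.763) with an ABA difference of 1.496 in white light and 0.72 under far-red light, and its interaction was -0.48 without white light replicate 1.

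The late genes of the anthocyanin pathway, which turn colourless precursors into stable pigments, lay close together at this end. AT5MAT (AT3G29590), the malonyltransferase that acylates anthocyanins, had levels of 5.76, 5.79 and 5.90 in white light and 7.14, 7.32 and 6.86 in white light with ABA. In far-red its levels were 6.24, 6.31 and 5.95, and in far-red with ABA 6.74, 6.996 and 6.36. The mean ABA difference was 1.29 log2 units in white light and 0.53 under far-red light. The groups did not overlap in either light, but narrowly so in far-red, where 6.31 without ABA lay next to 6.36 with ABA. The interaction was -0.77 (SE 0.21, 95% interval -1.21 to -0.32, adjusted p = 0.653).

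UF3GT (AT5G54060), which adds a further sugar to anthocyanins, had levels of 7.66, 7.89 and 7.92 in white light, 9.49, 9.61 and 9.21 with ABA, 8.30, 8.25 and 7.77 in far-red and 9.05, 9.35 and 8.67 in far-red with ABA. Its interaction was -0.70 (SE 0.24, adjusted p = 0.736). AT4G14090, the anthocyanin 5-O-glucosyltransferase, stood at -0.69 (SE 0.24) and DFR (AT5G42800), the dihydroflavonol reductase that opens the late branch, at -0.63 (SE 0.20, adjusted p = 0.736). UGT78D2 (AT5G17050), the flavonoid 3-O-glucosyltransferase, had -0.27 (SE 0.17, limma adjusted p = 0.826). All 5 measured of 16 listed genes of the flavonoid and anthocyanin pathway had values below 0, and 4 of them a nominal p under 0.05, where 4.19% of all probe sets were nominal and negative. The list was chosen with earlier results of these data known, and AT5MAT and UF3GT are among the 12 lowest. The 5 genes share arrays and are not separate results, so the count describes them only. For each of the 5, the ABA differences of the 2 lights overlapped over pairings of arrays.

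The median interaction of these 5 genes was -0.69, against -0.014 over all probe sets, and none passed the adjusted test. Their median ABA difference was 1.51 in white light and 0.87 under far-red light. Under every alternative the median stayed below 0, between -0.87 and -0.53. Far-red replicate 3 was the lowest of the far-red arrays for all 5, and far-red with ABA replicate 3 the lowest of its group for all 5. Without far-red replicate 3 the UF3GT value was -0.87.

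**Figure D2:**
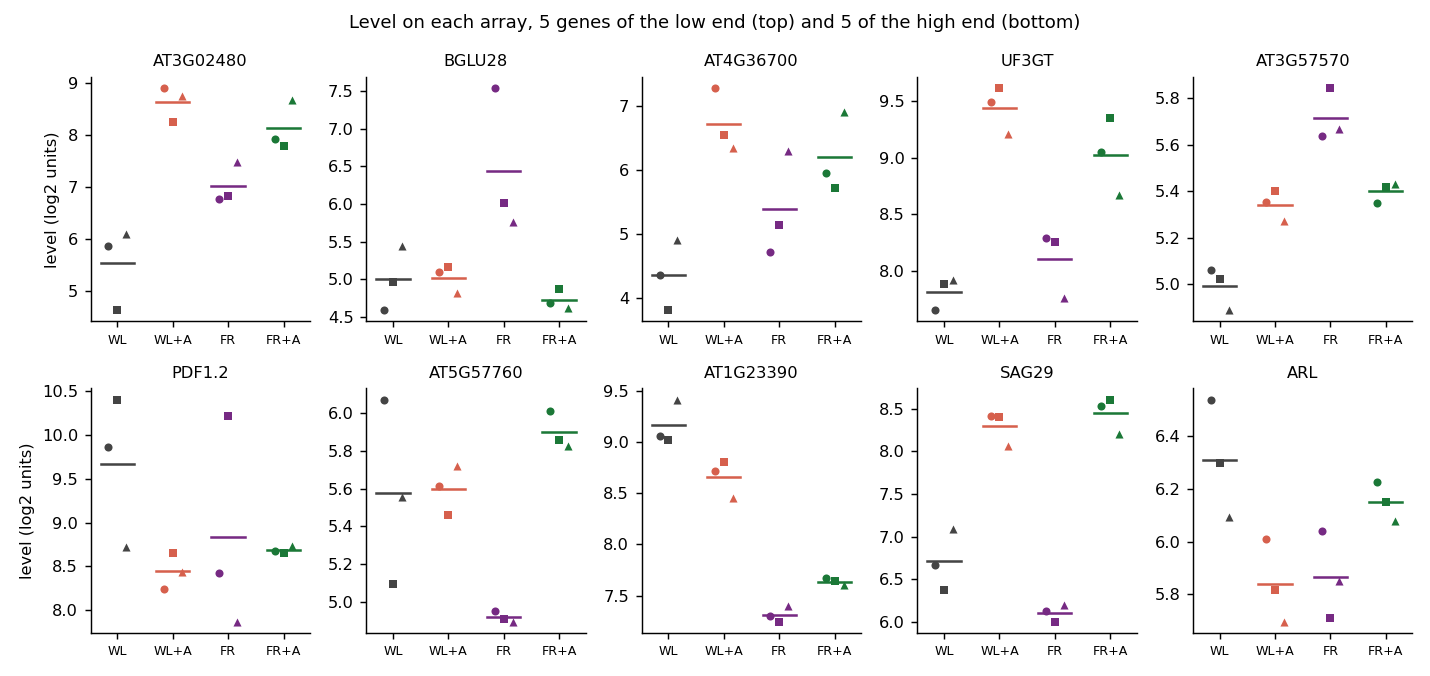
Level (vertical axis, log2 units) of 5 genes of the low end (top row) and 5 of the high end (bottom row) on each array, by group (WL, white light; FR, far-red; +A, with ABA). Circles, squares and triangles are replicates 1, 2 and 3 and the bars are group means; for AT3G02480 the ABA difference is 3.105 in white light and 1.11 under far-red light, and for AT1G23390 it is -0.51 and 0.32.

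A second form at the low end, which the ranking itself favours, was a gene that stood high in far-red alone. BGLU28 (AT2G44460), a beta-glucosidase known to be induced by sulfur shortage, had levels of 4.59, 4.97 and 5.45 in white light, 5.10, 5.16 and 4.82 with ABA and 4.68, 4.88 and 4.62 in far-red with ABA. In far-red its levels were 7.53, 6.01 and 5.76, above every array of the other groups. The interaction was -1.73 (SE 0.46, adjusted p = 0.653), and -1.18 without far-red replicate 1, the highest of these arrays. The other measured gene of the glucosinolate and sulfur list, BCAT4, an aminotransferase of methionine-derived glucosinolates, was at -0.07 (SE 0.18). AT2G43800, a formin that acts on actin filaments, had ABA differences of 0.47 in white light and -0.47 under far-red light and an interaction of -0.94 (SE 0.23, adjusted p = 0.579).

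Several genes of this form had small errors and led the ranking by moderated t. AT3G57570, an armadillo-repeat protein, had levels of 5.06, 5.02 and 4.89 in white light, 5.36, 5.40 and 5.27 with ABA, 5.64, 5.84 and 5.67 in far-red and 5.35, 5.42 and 5.43 in far-red with ABA. White light was lowest, far-red highest and both ABA groups lay between them without touching either. Its interaction was -0.67 (SE 0.12, 95% interval -0.92 to -0.41, adjusted p = 0.400), with the smallest unadjusted p among named genes, 5.045e-05. NERD (AT2G16485), a protein of a small-RNA-directed DNA methylation pathway, followed at -0.68 (SE 0.13, adjusted p = 0.400), with far-red arrays at 6.19, 6.19 and 6.02 and the other 9 between 5.30 and 5.65. AT5G63290 was at -0.55 (SE 0.12, adjusted p = 0.533).

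Most of the other named genes of the low end also stood high in far-red alone. For JMT, AT5G24580 and AT3G61920 every far-red array lay above all arrays of the other groups. The same order held for AT2G19970, although it was called present on no array, and it did not hold for AT4G12490. JMT (AT1G19640), which makes methyl jasmonate, had levels of 3.97, 4.28 and 4.29 in white light, 4.29, 4.42 and 4.36 with ABA, 4.73, 4.85 and 4.75 in far-red and 4.34, 3.83 and 4.25 in far-red with ABA. Its interaction was -0.81 (SE 0.17, adjusted p = 0.529), at a low level. Present calls were given on 3 of 3 far-red arrays and on 1 of 3 with ABA added. AT5G24580, a heavy-metal-associated domain protein, had an ABA difference of -0.17 in white light and -0.93 under far-red light and an interaction of -0.76 (SE 0.17, adjusted p = 0.533). It was called present on 1 of 3 arrays of far-red with ABA. AT3G61920 stood at -0.75 (SE 0.18) and was called present on no array of far-red with ABA, so its level there is only an upper bound. AT2G19970, a protein of the family of pathogenesis-related protein 1, was among the lowest by rank but was called present on no array, and no size is given. AT4G12490, of the lipid-transfer superfamily, was at -0.73 with an SE of 0.61, and replicate 2 was its highest array both in white light, at 9.41, and in far-red, at 10.02. The value was -0.26 without far-red replicate 2 and -1.35 without white light replicate 2.

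At the high end the largest named values belonged to plant defensins, small antifungal proteins of the jasmonate and ethylene response, and were uncertain. PDF1.2 (AT5G44420) had levels of 9.87, 10.41 and 8.72 in white light, 8.24, 8.65 and 8.44 with ABA, 8.42, 10.22 and 7.87 in far-red and 8.67, 8.65 and 8.73 in far-red with ABA. The arrays without ABA spread over more than those with ABA in both lights, and replicate 2 was the highest in both. The interaction of 1.07 (SE 0.64, 95% interval -0.30 to 2.44, adjusted p = 0.821) became 0.59 when replicate 3 of far-red was left out and 1.77 when its replicate 2 was. PDF1.2b (AT2G26020), whose probe set is of the type that can share probes with other genes, had 0.97 (SE 0.53, adjusted p = 0.808), and 1.54 without far-red replicate 2. The defensin-like gene PDF1.4 was at 0.79 (SE 0.29, adjusted p = 0.755), and at 0.495 without white light replicate 2.

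All 12 highest named genes by difference had a lower mean in far-red alone than in white light. In all 12 lowest the far-red mean was the higher, by 0.28 (UF3GT) to 1.49 (AT3G02480). The far-red mean enters the ranking with a minus sign, so the ranking itself favours such genes at either end. AT1G23390, a Kelch-repeat F-box protein known to target chalcone synthase for degradation, had levels of 9.06, 9.02 and 9.42 in white light, 8.72, 8.80 and 8.45 with ABA, 7.30, 7.24 and 7.39 in far-red and 7.67, 7.64 and 7.60 in far-red with ABA. The 4 groups did not overlap. Their order ran from white light through white light with ABA and far-red with ABA to far-red. The interaction was 0.83 (SE 0.16, 95% interval 0.50 to 1.17, limma adjusted p = 0.400), the smallest unadjusted p of the named genes at this end, 8.861e-05. The averaged far-red effect was a fall of 1.44 on the log2 scale (that is, -1.44, adjusted p = 7.407e-08), and the averaged ABA effect was -0.09 (adjusted p = 0.504). With an intensity-trended robust variance the interaction passed at an adjusted p of 0.0487, and the alternatives together gave 0.0487 to 0.682.

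AT5G57760 was lowest in far-red, at 4.95, 4.91 and 4.90, and had its highest mean in far-red with ABA, at 6.01, 5.86 and 5.82. In white light it stood at 6.07, 5.10 and 5.56 and with ABA at 5.62, 5.46 and 5.72. The ABA difference was 0.02 in white light, within the spread of the arrays, and 0.98 under far-red light, an interaction of 0.96 (SE 0.24, adjusted p = 0.579). AT2G15960 had ABA differences of 0.31 in white light and 1.11 under far-red light and an interaction of 0.80 (SE 0.31, adjusted p = 0.758). AT2G41250, a hydrolase of the haloacid dehalogenase family, was at 0.50 (SE 0.11, adjusted p = 0.527). Its far-red arrays lay at 7.18, 7.20 and 7.25, those of far-red with ABA at 7.60, 7.68 and 7.62, and all 6 white-light arrays between 8.10 and 8.27.

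SAG29 and AT1G09500 had the largest averaged ABA rises among the 12 highest, 1.96 (adjusted p = 1.191e-08) and 1.58 (adjusted p = 2.609e-04). SAG29 (AT5G13170), the sugar transporter SWEET15 of senescing leaves, had levels of 6.67, 6.37 and 7.09 in white light, 8.42, 8.41 and 8.06 with ABA, 6.13, 6.00 and 6.19 in far-red and 8.53, 8.61 and 8.21 in far-red with ABA. Both ABA groups reached a like level, and the far-red arrays started lower than all white-light arrays. The interaction was 0.75 (SE 0.22, 95% interval 0.28 to 1.23, adjusted p = 0.678). AT1G09500, of the cinnamyl alcohol dehydrogenase family, had ABA differences of 1.15 and 2.02 and an interaction of 0.87 (SE 0.48, adjusted p = 0.805), which was 0.57 without white light replicate 2. It was called present on 2 of 3 arrays in white light and 1 of 3 in far-red, near the background.

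In most of the remaining genes of this end ABA went with lower levels in white light and did so less, or not, under far-red light. ARL (AT2G44080), an ARGOS-like gene that promotes organ growth by cell expansion, had levels of 6.54, 6.30 and 6.10 in white light, 6.01, 5.81 and 5.70 with ABA, 6.04, 5.71 and 5.85 in far-red and 6.23, 6.15 and 6.08 in far-red with ABA. Each treatment alone went with a lower level than white light, and both together with a level close to that of white light. Its interaction was 0.76 (SE 0.17, adjusted p = 0.533). AT3G06070 had ABA differences of -1.87 in white light and -1.07 under far-red light and an interaction of 0.79 (SE 0.19, adjusted p = 0.561). AT3G15770 stood at 0.76 (SE 0.17, adjusted p = 0.533). The F-box-like gene AT1G73120 was at 0.75 with an SE of 0.78, and replicate 2 was its highest array in white light and in far-red. It was 0.13 without far-red replicate 3 and 1.35 without white light replicate 3. AT2G07520 and AT3G52480 were among the 6 highest by moderated t but were called present on no array, and no size is given.

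**Figure D3:**
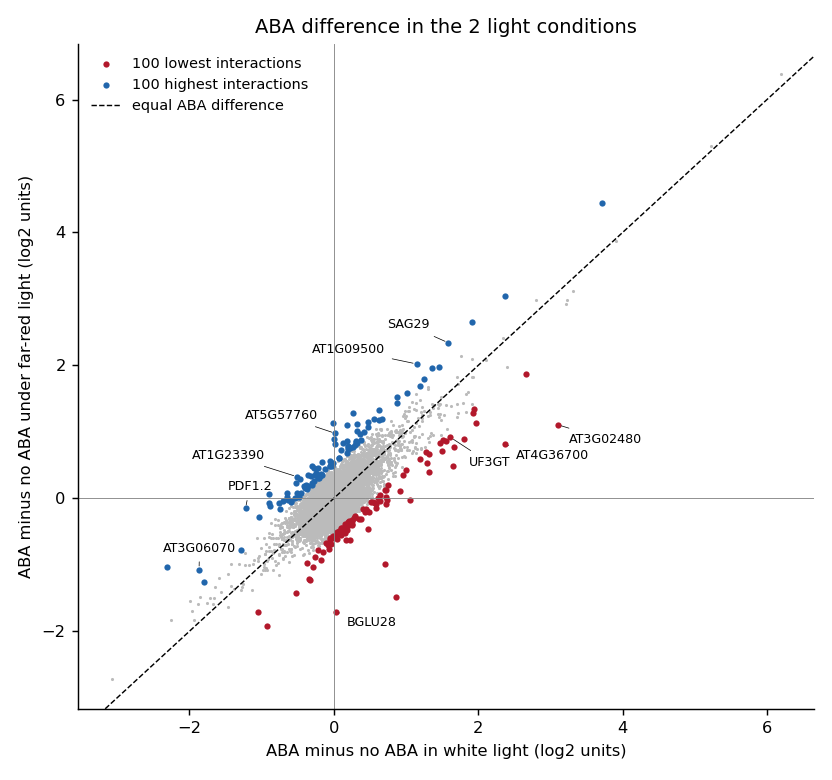
ABA difference in white light (horizontal axis) against ABA difference under far-red light (vertical axis), both in log2 units, for all 22746 probe sets. Probe sets with the 100 lowest and 100 highest interactions are coloured, the dashed line marks equal differences, and AT3G02480 lies at 3.105 and 1.11.

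Of the 12 lowest and 12 highest named genes by difference, 7 and 5 had ABA differences that did not overlap between the lights over all pairings of arrays, as had 530 probe sets (2.33%) in all. Since these genes were chosen by the same contrast, the counts describe them only. The adjusted p of all 30 named genes lay between 0.400 and 0.907. The averaged effects, which the ranking did not use, differed among them. Averaged over light, ABA raised 5 of the 12 lowest and 4 of the 12 highest, where 8.64% of all probe sets were raised. It lowered 4 of the lowest and 2 of the highest, where 8.57% of all were lowered. Averaged over ABA, far-red light raised 1 of the 12 lowest (AT2G43800, by 0.62, adjusted p = 0.0054) and 5.30% of all probe sets. It lowered 3 of the 12 highest (AT1G23390, AT2G15960 and PDF1.4) and 3.98% of all.

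The ends of the whole ranking, named or not, were described by the 100 lowest and 100 highest probe sets. The last probe set inside the low end had -0.547 and the first outside -0.544, and at the high end the values were 0.502 on both sides to 3 digits. A nominal p under 0.05 was reached by 86 of the 100 lowest and 73 of the 100 highest, which follows from their choice. The residual SD had a median of 0.219 and 0.236 log2 units in these sets, against 0.125 over all probe sets. Ranked by moderated t in place of the difference, 46 of the 100 lowest and 42 of the 100 highest were the same. Leaving out 1 array at a time kept between 65 and 79 of the 100 lowest and between 64 and 77 of the 100 highest. A present call on all 12 arrays was given to 54 of the lowest and 61 of the highest, against 54.8% of all probe sets. A present call on no array was found for 3 and 6, where 6148 of all 22746 probe sets had none.

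On the averaged effects both ends differed from the array as a whole. The averaged ABA effect was higher in 28 of the 100 lowest and 36 of the 100 highest (8.64% of all probe sets) and lower in 20 and 9 (8.57%). The averaged far-red effect was higher in 17 of the lowest and 2 of the highest (5.30%), and lower in 3 of the lowest and 32 of the highest (3.98%). Probe sets raised by far-red light thus lay more at the low end and those lowered by it at the high end. The difference between the ends was not tested.

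The same arrays can be regrouped by the averaged far-red effect, which is no second line of support. A larger spread without ABA moves the interaction below 0 in sets chosen as raised and above 0 in sets chosen as lowered, and its part here was not tested. Over the raised set the median SD was 0.124 in white light and 0.112 in far-red, and with ABA 0.107 and 0.105. Over the lowered set it was 0.1325 in white light and 0.114 in far-red, and with ABA 0.107 and 0.106. The 1205 that far-red light raised had a median interaction of -0.16, and 82.8% of them were below 0, against 53.7% of all probe sets. Their median far-red difference was 0.39 log2 units without ABA and 0.23 with ABA. The 905 that far-red light lowered had a median interaction of 0.11, and 70.3% were above 0, with median far-red differences of -0.37 without ABA and -0.28 with ABA. The signs of these 2 medians held under every alternative, in ranges of -0.22 to -0.098 and of 0.068 to 0.16. Probe sets are not replicates, they share arrays, and no p is given for these shares. Over the 1965 probe sets that ABA raised the median interaction was 0.026, and it was -0.0054 without white light replicate 1. Over the 1949 that ABA lowered it was -0.057, and 0.023 with each array centred on its median.

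**Figure D4:**
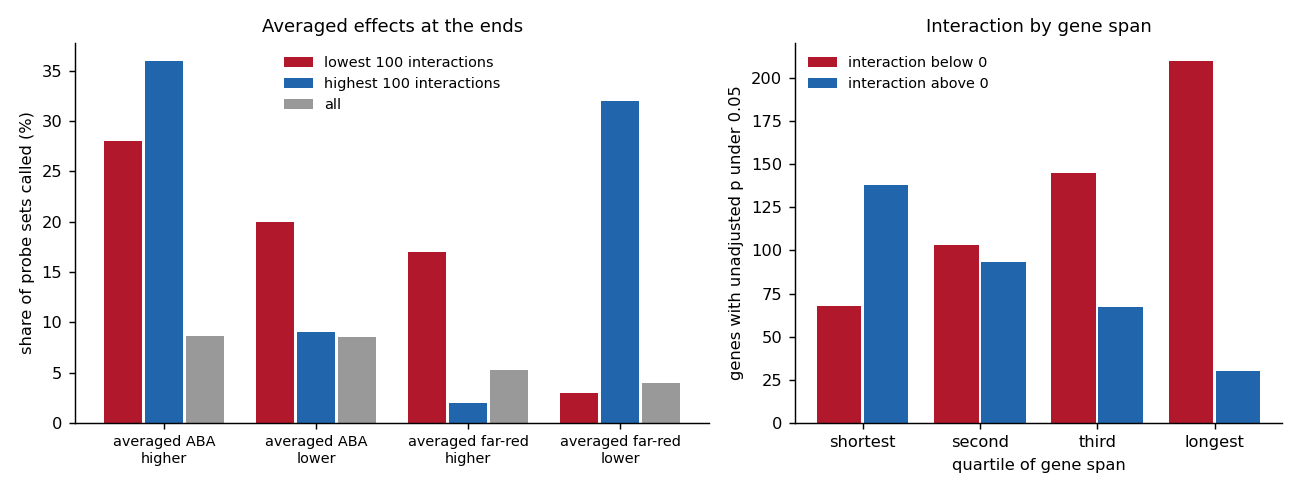
Left, share of probe sets (vertical axis, percent) called higher or lower on the averaged ABA and far-red effects among the 100 lowest interactions, the 100 highest and all probe sets; the averaged far-red effect was lower in 32% of the highest and 3.98% of all. Right, number of genes with a nominal interaction p under 0.05 below or above 0 (vertical axis) in each quartile of gene span, from 68 and 138 in the shortest to 210 and 30 in the longest.

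Gene length moved with the interaction. By RefSeq gene span (TAIR10.1), available for 13436 of 13513 probe sets with 1 named gene, the longest quartile, with a median span of 3966 bases, held 210 genes with a nominal negative interaction and 30 with a positive one. The shortest quartile, with a median span of 977 bases, held 68 and 138. The median interaction was 0.04 in the shortest quartile and -0.065 in the longest, and the median far-red difference without ABA was -0.05 and 0.08. With median centring of each array these 2 interactions became 0.12 and 0.017, so that their order held while the sign of the longest turned, and the counts in the longest became 78 negative and 96 positive. When 1 array was left out, the longest quartile held between 141 (without far-red with ABA replicate 1) and 288 negative genes (without white light replicate 2) and between 23 and 51 positive ones. The GAPDH signal differed between 3′ and 5′ probe sets by 0.36 log2 units on far-red replicate 3 and by 0.65 to 0.99 on the other 11, and without that array the counts were 156 and 39, inside this range. The part of RNA quality or labelling in the relation to length was not tested. The named genes of the 100 lowest had a median span of 2329 bases and those of the 100 highest of 1528, against 2117 over all.

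Of 6 measured ABA-responsive genes of 20 listed, none was nominal, where 6.44% of all probe sets were. Their median interaction was -0.12, with 0.085 without white light replicate 2. LTI30 (AT3G50970), a dehydrin, was the highest at 0.67 (SE 0.39, 95% interval -0.15 to 1.49, adjusted p = 0.820). COR15A (AT2G42540), a membrane-protecting chloroplast protein, was at -0.29 (SE 0.29) and its neighbour COR15B at -0.23 (SE 0.30). HIS1-3, a drought-induced linker histone, was called present without ABA on 1 of 3 arrays in white light and on none in far-red, and the LEA protein LEA4-5 on no array without ABA, so no size is given for either, although both enter the median. The intervals of COR15A (-0.90 to 0.33) and COR15B (-0.87 to 0.41) leave room for a moderate interaction in either direction.

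Among 5 measured shade markers of 18 listed, 2 were nominal and negative and 1 positive, with a median of -0.15, where 4.19% of all probe sets were nominal and negative and 2.26% nominal and positive. AT5G24580, described above, belongs to this list. YUC2 (AT4G13260), an enzyme of auxin synthesis, was at -0.37 (SE 0.14, adjusted p = 0.755), with an ABA difference of -0.16 in white light and -0.53 under far-red light. FHL, a nuclear import factor of phytochrome A, was at 0.35 (SE 0.13, adjusted p = 0.755) near background, and the homeodomain gene HAT2 was at 0.38 (SE 0.18, adjusted p = 0.779). Averaged over ABA, far-red light raised only BIM1 of these markers (0.27, limma adjusted p = 0.021). The adjusted p of that effect was 0.674 for AT5G24580, 0.816 for YUC2, 0.888 for FHL and 0.156 for HAT2. Of 6 measured early auxin response genes of 21 listed, 1 was nominal and negative (4.19% of all probe sets), GH3.3 (AT2G23170), an auxin-conjugating enzyme, at -0.44 (SE 0.20, adjusted p = 0.763). GH3.3 lay at 6.08, 6.49 and 5.94 in far-red and between 5.23 and 5.74 on the other 9 arrays, with no overlap. IAA29, a repressor of auxin signalling, rose with far-red light averaged over ABA (adjusted p = 2.245e-05), and no size is given, since it was called present on no array of either white-light group. HYH (AT3G17609), the homologue of the light-signalling factor HY5 and the 1 measured of 17 light-signalling genes, was at 0.32 (SE 0.15, adjusted p = 0.763).

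Lists of growth and photosynthesis held 1 nominal result between them, where 6.44% of all probe sets were nominal. The 10 measured expansins and xyloglucan endotransglucosylases, which loosen and rebuild cell walls, had a median of 0.0084, between -0.27 and 0.46, and none was nominal. Leaving out far-red replicate 1 gave a median of -0.096, and leaving out replicate 3 gave 0.14. EXLA1, an expansin-like gene, was the highest at 0.46 (SE 0.23, adjusted p = 0.785). The 6 light-harvesting and Calvin cycle genes ran from -0.14 to 0.17, with a median of -0.0031, and 0.079 after median centring. The gibberellin receptors GID1A, GID1B and GID1C were at 0.07, 0.10 and 0.22. The 4 cell cycle genes had a median of -0.16, with the replication factor PRL lowest at -0.27 (SE 0.16). Of the 3 stomatal lineage genes FMA, which drives the last step to guard cells, was nominal at -0.26 (SE 0.12, adjusted p = 0.772). Of all probe sets 4.19% were nominal and negative. SPCH, which starts the lineage, was at -0.12 (SE 0.12).

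Lists with fewer measured members were given by their genes. The clock gene GI rose with far-red light averaged over ABA (0.59, adjusted p = 0.0013) and had an interaction of -0.23 (SE 0.18). WRKY53 of the senescence list was called present on no array of white light without ABA, and the thionin THI2.1 on no array of either far-red group, so no sizes are given. PYE, a regulator of the iron response, was at 0.27 (SE 0.19), the wax synthase WSD1 at 0.14 (SE 0.15) and the glutaredoxin GRX480 at -0.08 (SE 0.15). No listed gene of ABA synthesis and signalling or of heat shock was measured under a single gene name here.

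**Figure D5:**
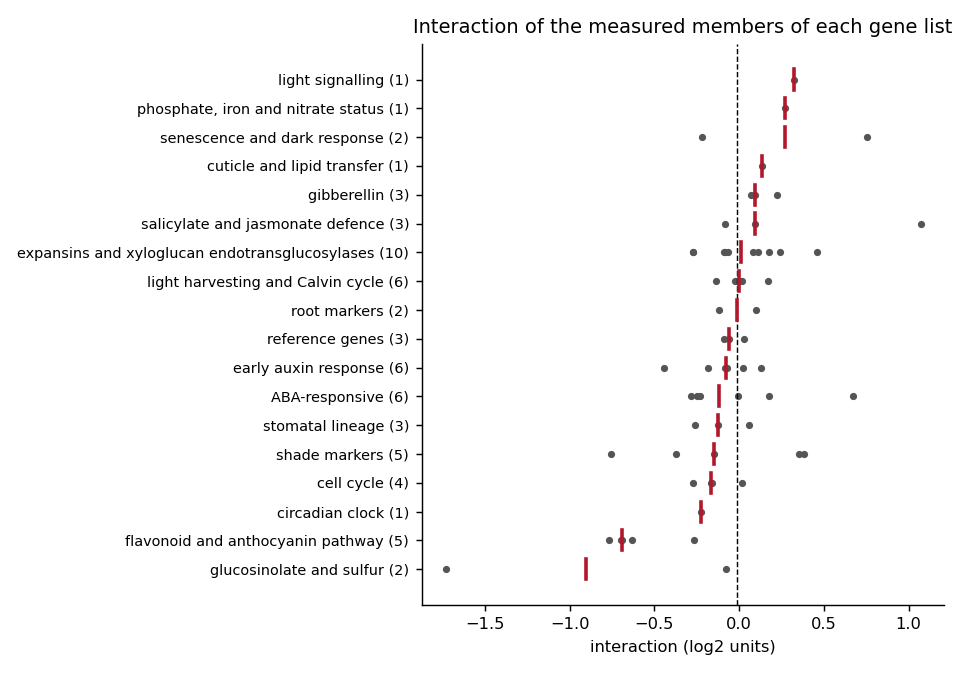
Interaction (horizontal axis, log2 units) of each measured member (points) of the gene lists (vertical axis, number of measured members in brackets), with the list median as a red bar and the median over all probe sets, -0.014, as a dashed line. The 5 flavonoid and anthocyanin genes lie between -0.77 and -0.27, all below 0.

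The 69 genes of the plastid genome with a probe set of their own, a group chosen after its values were seen, had a median interaction of -0.079, and 45 of them were below 0. It was 0.0025 after median centring. Their nominal results were 6 negative (4.19% of all probe sets) and 2 positive (2.26%), and 3 were among the 100 lowest, which are 0.440% of all probe sets. As background, plastid transcripts mostly lack long poly(A) tails, and the labelling here started from an oligo-dT primer. The part of labelling in these values was not tested.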

How the data were processed

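Per the labels' protocols, reverse transcription of total RNA was primed with T7-tailed oligo-dT, and biotin-labelled cRNA was hybridised to 1-colour Affymetrix arrays. The authors deposited log2 expression values for each probe set, which come from RMA in the affy package according to the submitters' processing notes. RMA corrects background, normalizes between arrays and summarises probes, and it compresses differences of dim probe sets. Detection calls (present, marginal, absent) were deposited by the authors as letters, other than numbers, from MAS5 per the same notes. The sources used here give no tool version and no genome build. The series value table held the same values to within 5e-09.

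Of 22810 probe sets, 64 controls were left out. The platform annotation named 1 gene for 13513 probe sets, several for 503 and none for 8730, which are unnamed here; 13436 were matched to RefSeq by gene identifier. The interaction and the averaged effects were fitted with limma 3.58.1 in R 4.3.3 (a mean per group, all 12 arrays, 8 residual and 7.21 prior degrees of freedom), two-sided, with Benjamini-Hochberg adjustment over all probe sets and a threshold of 0.05, and the code was tested on simulated data. "Nominal" means an unadjusted p under 0.05. Per the labels the 3 arrays of each group are biological replicates, whose spread is what the p-values rest on. Their number, 3 per group, limits the precision.

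The named genes are the 12 highest and 12 lowest by difference and the 6 highest and 6 lowest by moderated t among probe sets of 1 gene, and up to 4 members per list with the smallest p. Members measured in lists of few genes and the control genes are also given. Lists and members were chosen with earlier results of these data known. A planned grouping by words in gene descriptions and a promoter search were not run, because the tables used here hold neither descriptions nor sequences. Alternatives were median centring, quantile normalization, a detection filter, trended robust variance, array weights, the replicate number as a block and leaving out each array. Plotting used Python 3.11.15 and matplotlib 3.10.9.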

Additional observations from a re-analysis of the deposited data

How the results depend on the processing

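The count of interactions past the threshold was 0 with each array centred on its median, after quantile normalization, with the detection filter, with array weights and with the replicate number as a block. With the block the smallest limma adjusted p was 0.0798, against 0.400 in the main fit. Over the alternatives the adjusted p was 0.0798 to 0.827 for AT3G02480 and 0.0798 to 0.923 for AT3G06070. The count was 2 with trended robust variance (AT1G23390 and the unnamed probe set 263549_at). Leaving out 1 array gave 0 to 2, with 1 (263549_at) without white light replicate 3 and 2 (248676_at and 250558_at, both unnamed) without far-red replicate 3. The nominal count of 1465 lay between 1172 and 1897 when 1 array was left out and was 1751 with the replicate block. The averaged far-red count of 2110 lay between 1133 and 2571 when 1 array was left out, and the averaged ABA count between 3180 and 3794. The samples share only a replicate number: same-numbered arrays of different groups had correlations of deviations from -0.051 to 0.273 (median 0.092), and others a median of -0.040. Within a light the same-numbered pairs were all positive, 0.124 to 0.273 for far-red and 0.096 to 0.218 for white light, a hint from the data and not from the labels. Across the lights same-numbered pairs were mostly positive too, from -0.051 to 0.204, and pairs of different number reached 0.133. Over the 101 genes and probe sets and 18 alternatives, 74 of 1804 values had the opposite sign. The number of arrays, and for dim probe sets the background, limits what could be detected.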

Other observations

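The most extreme probe sets of the ranking carry no gene name in the annotation used here. The lowest interaction, -2.34 (SE 0.44, limma adjusted p = 0.400), was that of 248676_at, with levels of 5.59, 5.90 and 6.51 in white light, 7.13, 6.57 and 6.87 with ABA, 8.68, 7.83 and 6.99 in far-red and 6.33, 6.605 and 6.13 in far-red with ABA. As for BGLU28, far-red replicate 1 was its highest array and far-red replicate 3 the lowest of that group, and the interaction was -1.91 without the former and -2.76 without the latter, there with an adjusted p of 0.0206, and the alternatives together gave 0.0206 to 0.772.

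The highest interaction, 1.27 (SE 0.21, adjusted p = 0.400), with the smallest unadjusted p of all (2.361e-05), was that of 263549_at. Its levels were 6.32, 6.50 and 5.85 in white light and 4.84, 4.49 and 4.66 in far-red, and it was called present on no array with ABA, so that the ABA differences are bounded by the background. Averaged over ABA, far-red light lowered it (-0.92, adjusted p = 1.617e-04). The probe set 267461_at, second from the top at 1.14 (SE 0.29, adjusted p = 0.579), stood at 4.76, 3.85 and 4.46 in far-red, at 5.57, 5.61 and 5.28 in far-red with ABA and between 6.48 and 7.19 on the white-light arrays.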
